A study of Xenopus laevis with 30 samples.

Results

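The genes described here are the copies of dlx1 to dlx6 and gsx2 in the Xenopus laevis tadpole brain, taken from the table of raw read counts by name. X. laevis is allotetraploid, so many genes are present as a copy on the long (.L) and a copy on the short (.S) chromosome of a pair. The names matched 10 of the 49109 genes in the table: dlx2.L, dlx2.S, dlx5.L, dlx5.S, dlx6.L, dlx6.S and gsx2.L, which are the 7 copies of genes known for the subpallium, and dlx3.L, dlx3.S and dlx4.L, which are known mainly from epidermis and cranial structures. dlx1 was not analysed here. RNA was sequenced from untreated albino tadpoles of both sexes, staged after Nieuwkoop and Faber (NF). The dissected forebrain was its subcortical part. The forebrain, midbrain, hindbrain and spinal cord were sampled at stage 46, with 3 samples per region, and at stage 49, with 2 samples per region. The midbrain was also sampled at stages 44, 55 and 61, with 3 samples each, and at stage 66, with 1 sample, which makes 30 samples in all. Stages 44 to 49 are early tadpoles, stage 55 lies in prometamorphosis, stage 61 in metamorphic climax, and stage 66 is the end of metamorphosis. How many animals were combined in a sample is not given in the sources used here.

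Dlx genes encode homeodomain transcription factors. In vertebrate genomes they lie in neighbouring pairs, and in the annotation used here dlx5 and dlx6 were next to each other for both the .L and the .S copies. In the mouse, Dlx1, Dlx2, Dlx5 and Dlx6 are expressed in the ganglionic eminences of the ventral telencephalon (the subpallium) and in parts of the diencephalon, where they act in the differentiation and migration of GABAergic neurons. Gsx2 is a homeodomain factor of dividing progenitors in the same ventral telencephalic zone of the mouse and acts upstream of Dlx2, and it is also found in the embryonic hindbrain and spinal cord.

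The libraries held 1762544 to 11016124 reads assigned to genes. In 10 of the 30 libraries over 45000 genes had at least 1 count. These were replicate 3 of the forebrain, hindbrain and spinal cord at stage 46, and every stage 49 library other than midbrain replicate 1. They held 1762544 to 4937973 counts, against 6357375 to 11016124 in the other 20. Genes with at most 2 counts over 12 midbrain samples took 0.541 to 1.87% of their counts, against 0.00186 to 0.101% in the other 20. The dlx3 and dlx4 copies followed this split. Their summed level was 7.86 to 18.5 CPM (counts scaled to a common library size) in the 10 libraries and 0 to 1.19 CPM in the other 20 (in each of the 10, dlx3.L was at 3.25 to 10 CPM, dlx3.S at 1.18 to 3.96 CPM and dlx4.L at 2.6 to 6.66 CPM). The stage 46 results of the copies are given with and without these libraries. The counts of the gene lists are given only with them, and at stage 49, where they are 7 of the 8 libraries, no comparison between regions could be made without them. Forebrain genes were followed as a list of 7 copies. Of these, emx1.S encodes a transcription factor of the dorsal telencephalon. It was at 51.4 ± 13.3 CPM (SD, n = 3) in the stage 46 forebrain and 0.987 ± 0.243 CPM (SD, n = 3) in the midbrain. nkx2-1.L, of the same list, was at 84.3 CPM in the forebrain and 79.6 CPM in the midbrain. The list summed to 270 to 561 CPM in the forebrain and 145 to 156 CPM in the midbrain. How cleanly the regions were cut was not tested.

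The first question was where the copies are expressed at stage 46. All 7 subpallial copies had their highest level in the forebrain, an intermediate level in the midbrain, and the 6 dlx copies were near 0 in the hindbrain and spinal cord. gsx2.L differed from the dlx copies in that its hindbrain level was as high as its midbrain level. The levels below are in CPM after scaling all 30 libraries together by the TMM method, and samples are listed as replicates 1, 2 and 3.

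dlx2.L was at 219, 318 and 172 CPM in the forebrain and at 151, 111 and 120 CPM in the midbrain. In the hindbrain it was at 1.24, 1.73 and 1.89 CPM, and in the spinal cord at 0.78, 1.48 and 1.12 CPM. The forebrain and midbrain samples did not overlap, and both stood far above the hindbrain and spinal cord. The second copy, dlx2.S, was at 130, 145 and 72.3 CPM in the forebrain and at 44.0, 49.9 and 48.7 CPM in the midbrain. In the hindbrain, replicates 1 and 2 had no count of dlx2.S, and replicate 3, one of the libraries with many genes detected, had 10 counts (2.36 CPM). In the spinal cord dlx2.S was at 0, 0.889 and 2.02 CPM, again highest in replicate 3.

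dlx5 and dlx6, the partners of dlx2 in the same neuronal lineage, had the same order of regions. dlx5.L was at 55.1, 81.6 and 33.7 CPM in the forebrain, and at 19.0, 17.3 and 20.8 CPM in the midbrain. dlx5.S was at 50.6, 65.3 and 50.2 CPM in the forebrain and at 28.2, 22.7 and 21.4 CPM in the midbrain. dlx6.L was at 56.1, 67.8 and 47.6 CPM in the forebrain and at 17.2, 22.0 and 23.1 CPM in the midbrain. In none of these copies did the forebrain samples overlap with the midbrain samples. dlx6.S was at 48.3, 66.3 and 32.5 CPM in the forebrain and at 17.2, 18.6 and 22.5 CPM in the midbrain. In the hindbrain and spinal cord of stage 46, the libraries without the broad detection of genes held at most 7 counts of any dlx5 or dlx6 copy. The hindbrain library with broad detection held 8 counts of dlx5.L, 17 of dlx5.S, 21 of dlx6.L and 19 of dlx6.S.

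gsx2.L was at 30, 23.1 and 19.1 CPM in the forebrain and at 3.01, 5.43 and 3.66 CPM in the midbrain. It was at 4.42, 3.71 and 2.60 CPM in the hindbrain and at 2.03, 2.07 and 0.449 CPM in the spinal cord. The midbrain and hindbrain samples overlapped. The hindbrain value did not come from the library with broad detection, which had the lowest of the 3. As a share of its own forebrain mean, gsx2.L was at 16.8% in the midbrain, 14.9% in the hindbrain and 6.31% in the spinal cord. The dlx copies were at 33.5 to 54% of their forebrain means in the midbrain, and at 0.477 to 3.44% in the hindbrain and spinal cord.

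**Figure D1:**
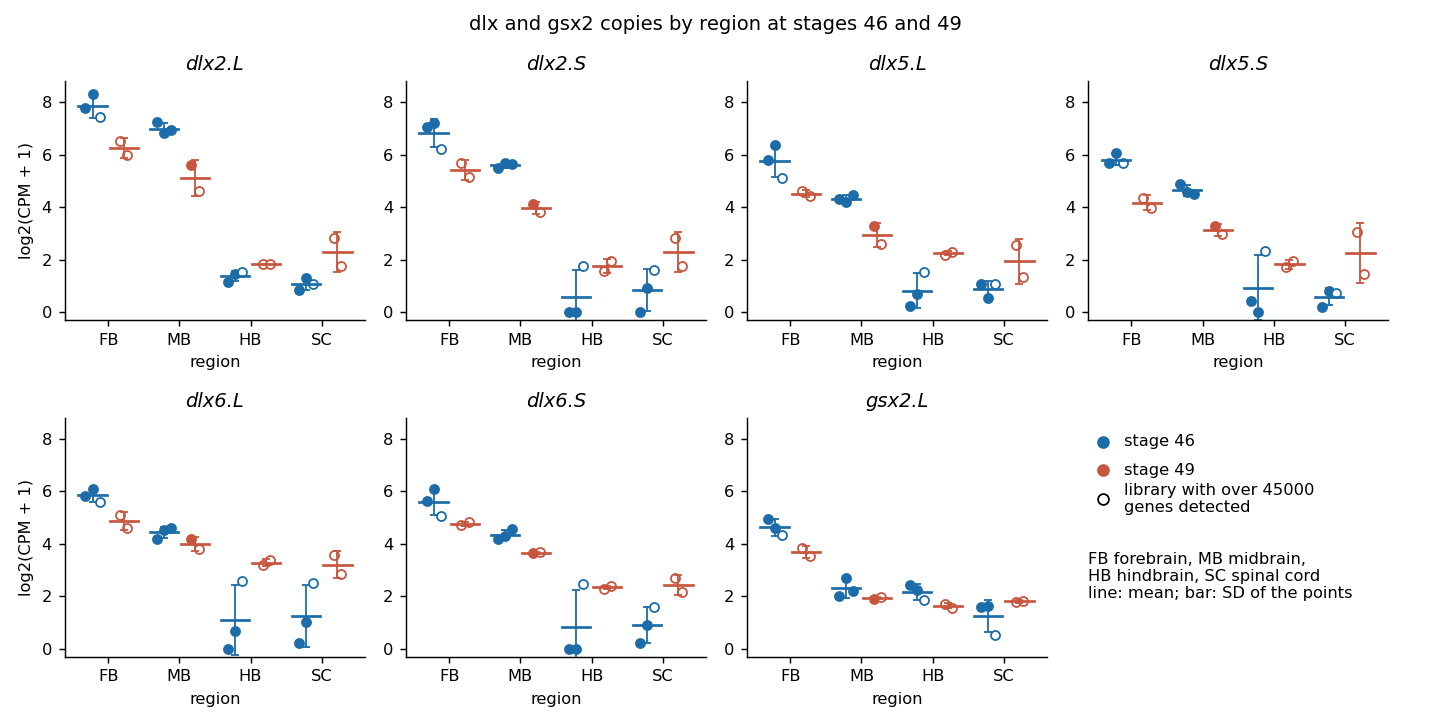
Level of each copy by region, as log2(CPM + 1), at stage 46 (blue, 3 samples per region) and stage 49 (red, 2 samples per region). Points are samples, lines are means and bars are SD over the points. Open points are libraries with over 45000 genes detected. Forebrain points lie above midbrain points for all 7 copies at both stages. In the hindbrain and spinal cord at stage 46, filled points of the dlx copies lie at 0 to 1.73 CPM. The open points there lie at 0.674 to 4.96 CPM.

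Regions were compared by the quasi-likelihood test of edgeR, and p was adjusted by the Benjamini-Hochberg method across the whole table. In what follows a copy passed when its adjusted p was under 0.05, and was called when its log2 difference also exceeded 2 in either direction. These thresholds follow the methods of the study. The p values measure the spread between these samples. Against the hindbrain, all 7 copies were called higher in the forebrain, where 0.473% of the 34485 genes tested were. The log2 fold change was 7.18 ± 0.35 (SE) for dlx2.L and 2.75 ± 0.42 (SE) for gsx2.L (adjusted p = 5.87e-09 and 0.000595), with dlx2.S, dlx5 and dlx6 between 5.13 and 7.55. Against the spinal cord, all 7 copies were also called higher in the forebrain (1.24% of all genes), from 3.98 ± 0.45 (SE) for gsx2.L to 7.71 ± 0.36 (SE) for dlx2.L on the log2 scale (adjusted p = 8.65e-06 and 2.93e-09).

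Without the 3 stage 46 libraries with broad detection, all 7 copies were again called against both regions. The share of all genes called in this fit is not reported here. Over the 2 hindbrain libraries that remained, dlx2.S and dlx6.S had no counts, so their forebrain levels were at least 630-fold and 263-fold higher than a floor of 3 counts over these libraries. dlx2.L, with 21 counts over them, was 181-fold higher. The calls of dlx6.L and dlx6.S against the hindbrain were the least stable. Each was lost in 8 of the 12 fits that left out 1 stage 46 library, with adjusted p up to 0.127 and 0.147, and the log2 difference stayed at 4.49 or above in those fits. Against the spinal cord, dlx6.L lost its call without forebrain or spinal cord replicate 2 (adjusted p = 0.0519 and 0.068), and dlx6.S without spinal cord replicate 2 (adjusted p = 0.057).

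Against the midbrain only gsx2.L was called higher in the forebrain, by 2.66 ± 0.41 (SE) on the log2 scale or 6.33-fold (adjusted p = 0.000949), where 0.47% of all genes were. It was called in each of the 12 fits that left out 1 library. The 6 dlx copies were 1.97 to 3.14-fold higher, below the log2 threshold of 2. By the adjusted p alone, 3 of the 7 copies passed in this direction, against 1.04% of all genes: gsx2.L, dlx5.L (1.65 ± 0.35 on the log2 scale, adjusted p = 0.0133) and dlx2.L (0.98 ± 0.25, adjusted p = 0.0443). The difference of dlx2.L lost significance in 10 of the 12 fits without 1 library (adjusted p up to 0.285), and that of dlx5.L without forebrain replicate 2 or any 1 of the midbrain libraries (adjusted p up to 0.158).

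The other dlx copies were between 1.30 and 1.56 higher on the log2 scale, with adjusted p from 0.348 to 0.416. No forebrain sample of these copies overlapped with a midbrain sample, but such separation was not counted over all genes. Without the 3 libraries with broad detection all 7 copies passed, with log2 differences from 1.1 to 2.74 and adjusted p from 4.06e-05 to 0.00587. The share of all genes that passed in this fit was not counted. Leaving out hindbrain replicate 3 alone, which is in neither group compared but adds to the shared estimate of the spread, brought dlx2.S, dlx5.S and dlx6.S below the threshold (adjusted p = 0.0404, 0.00493 and 0.0175).

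The midbrain level of the dlx copies was itself a difference between regions. Against the hindbrain, dlx2.L, dlx2.S, dlx5.L and dlx5.S were called higher in the midbrain, by 4.22 to 6.21 on the log2 scale, where 0.273% of all genes were. Against the spinal cord, the same 4 copies and dlx6.S were called, by 4.28 to 6.74, where 1.14% of all genes were. Without the 3 libraries with broad detection, all 6 dlx copies were called against both regions, and the share of all genes in that fit is not reported here. The call of dlx5.S against the hindbrain was lost in 7 of the 12 fits without 1 library (adjusted p up to 0.122), and that of dlx6.S against the spinal cord in 8 of 12 (adjusted p up to 0.133). gsx2.L did not differ detectably between the midbrain and the hindbrain, with a log2 difference of 0.09 ± 0.41 (SE) (adjusted p = 0.93), nor did it pass between the midbrain and the spinal cord (1.32 ± 0.43, adjusted p = 0.0582). Between the hindbrain and the spinal cord, edgeR called 0 of the 7 copies. At an unadjusted p below 0.05, 1 copy passed, and DESeq2 called 0. For these counts no share of all genes is reported here. Without hindbrain replicate 3, dlx6.S, which then had no hindbrain count, was called lower in the hindbrain (adjusted p = 0.0294).

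**Figure D2:**
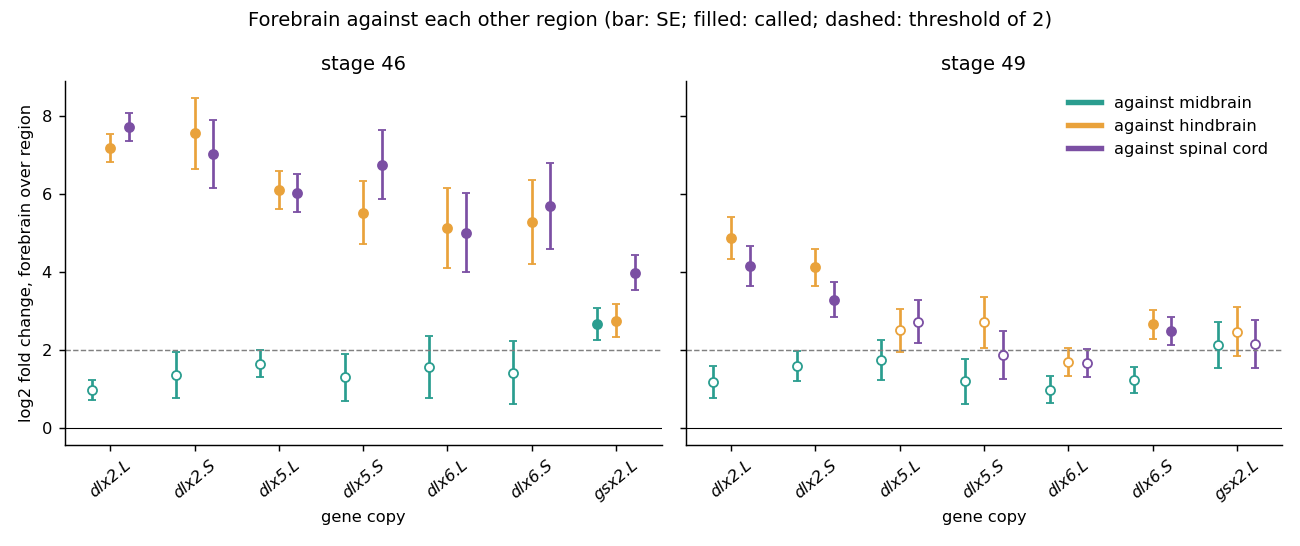
log2 fold change of the forebrain over the midbrain (green), hindbrain (orange) and spinal cord (purple) for each copy at stage 46 (left) and stage 49 (right), with the SE of the edgeR fit as bars. Filled points were called and the dashed line is the threshold of 2. At stage 46 the 7 copies are called against hindbrain and spinal cord, and gsx2.L alone against the midbrain.

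Markers of other regions were measured in the same samples. A list of 25 copies of diencephalic and hypothalamic genes summed to 1211 to 1317 CPM in the stage 46 midbrain libraries, 191 to 294 CPM in the forebrain, 350 to 533 CPM in the hindbrain and 301 to 480 CPM in the spinal cord. Of these, 8 were called lower in the forebrain than in the midbrain (0.447% of all genes), with a median log2 difference of -2.07 over the list. Dlx genes are expressed in the diencephalon of the mouse, and some genes of the list, such as lhx1 and irx3, are also known from the midbrain itself. The part of the diencephalon in the midbrain level of the dlx copies was not tested. In bulk tissue, fewer cells that express a gene and less RNA per cell cannot be told apart.

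Partners and targets of these factors in GABAergic neurons were followed as a list of 41 gene copies. Of the 41, 3 were called between the forebrain and the midbrain (sp8.L, lhx6.L and lhx6.S), all higher in the forebrain, where 0.47% of all genes were (median log2 difference -0.05, and 0.18 over all genes tested). Against the hindbrain, 7 were called, all higher in the forebrain, where 0.473% of all genes were (median 0.33, and 0.04 over all genes). Against the spinal cord 12 were called higher and 4 lower, where 1.24% and 2.12% of all genes were (median 0.78, and 0.12 over all genes). The 4 copies with the smallest p in the midbrain comparison did not move one way. sp8.L, a zinc-finger factor of subpallial progenitors and olfactory bulb interneurons in the mouse, was 2.78 ± 0.31 (SE) higher in the forebrain on the log2 scale and was called (adjusted p = 3.69e-05). arx.L, a homeodomain factor downstream of Dlx2 in the mouse, was higher by 1.03 ± 0.22 (adjusted p = 0.0132). sst.S, which encodes somatostatin, was at 95.7 ± 18.6 CPM (SD, n = 3) in the forebrain and 291 ± 37.6 CPM (SD, n = 3) in the midbrain, a log2 difference of -1.51 ± 0.28 (SE) (adjusted p = 0.00541 by edgeR). rarb.L, a retinoic acid receptor, was also lower in the forebrain, by -1.47 ± 0.31 (adjusted p = 0.0142).

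A list of 24 copies of pallial genes was counted in the same way. Of these, 5 were called higher in the forebrain than in the midbrain and 1 lower (0.47% and 0.447% of all genes), with a median log2 difference of 0.42 over the list and 0.18 over all genes. Against the hindbrain, 6 were called higher (0.473% of all genes; median 1.40, and 0.04 over all genes), and against the spinal cord 13 (1.24% of all genes; median 4.08, and 0.12 over all genes). neurod6.L, a factor of pallial glutamatergic neurons in the mouse, was 2.29 ± 0.23 (SE) higher in the forebrain than in the midbrain on the log2 scale (adjusted p = 9.97e-06), and bcl11b.S was 1.72 ± 0.30 higher (adjusted p = 0.00327). lhx9.S was called lower, at -2.18 ± 0.41 (adjusted p = 0.00693), and neurog2.S, a proneural factor, was lower by -1.84 ± 0.36 (adjusted p = 0.00775).

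At stage 49 the forebrain again had the highest and the midbrain the next highest mean level of all 7 copies. The hindbrain and spinal cord means differed in order from stage 46 for dlx2.L, dlx5.S, dlx6.L, dlx6.S and gsx2.L. These means were low and could be close, such as 8.73 and 8.56 CPM for dlx6.L at stage 49. None of the 7 copies was called between these regions at either stage, and the share of all genes is not reported here. The mean levels of the dlx copies were lower in the forebrain and midbrain, and higher in the hindbrain and spinal cord, than at stage 46. dlx2.L was at 91.2 and 62.9 CPM in the forebrain and at 47.8 and 23.7 CPM in the midbrain. It was at 2.60 and 2.55 CPM in the hindbrain and at 6.06 and 2.36 CPM in the spinal cord. gsx2.L was at 13.5 and 10.6 CPM in the forebrain, and between 1.98 and 2.94 CPM in the 6 other samples. The forebrain samples stood above those of every other region for all 7 copies. The share of all genes with such separation was not counted. In the 6 hindbrain and spinal cord libraries with broad detection from both stages, the dlx copies were between 0.674 and 10.9 CPM, and in the other 4 between 0 and 1.73 CPM.

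Against the hindbrain, dlx2.L, dlx2.S and dlx6.S were called higher in the stage 49 forebrain, by 4.88 ± 0.54, 4.12 ± 0.48 and 2.66 ± 0.37 (SE) on the log2 scale (adjusted p = 0.0133, 0.0159 and 0.0303 by edgeR), where 0.073% of 35609 genes were. The same 3 copies were called against the spinal cord, by 4.15, 3.29 and 2.48 (adjusted p = 0.00898, 0.0142 and 0.0192), where 0.267% of all genes were. These calls were lost without some of the libraries. All 3 calls against the hindbrain were lost without either forebrain or either hindbrain sample, with adjusted p from 0.128 to 0.653. All 3 against the spinal cord were lost without either forebrain sample or without spinal cord replicate 2, with adjusted p from 0.0869 to 0.329, and that of dlx6.S was also lost without any other hindbrain or spinal cord sample (adjusted p = 0.0516 to 0.059). Without midbrain replicate 1 or 2, dlx5.L and gsx2.L were called as well against both regions (adjusted p of 0.00058 to 0.000797 for gsx2.L against the spinal cord), and dlx5.S against the hindbrain.

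Against the midbrain, edgeR called 0 of the 7 copies higher in the stage 49 forebrain, where 0.0477% of all genes were, and DESeq2 called 0. At an unadjusted p below 0.05, 6 copies passed, and the share of all genes at this cutoff is not reported here. The log2 differences were between 0.99 and 2.13 with adjusted p from 0.341 to 0.588, next to 0.98 to 2.66 at stage 46. Without midbrain replicate 1, dlx5.L and gsx2.L were called (2.15 and 2.07, adjusted p = 0.00312 and 0.0385), and without midbrain replicate 2, gsx2.L was called (2.17, adjusted p = 0.000447). The single midbrain sample that then remained is assumed to vary like the other regions. Between the stage 49 midbrain and spinal cord, dlx2.L was called higher in the midbrain by 2.97 ± 0.50 (SE) (adjusted p = 0.0438, 0.303% of all genes), a call lost without any 1 of the forebrain, hindbrain or spinal cord samples (adjusted p from 0.105 to 0.141).

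The difference between stages 46 and 49 was tested within each region in the 20 samples of both stages. After TMM scaling, all 7 copies were lower at stage 49 in the forebrain and in the midbrain without overlap of the samples. How many of all genes were also lower without overlap was not counted. edgeR passed 0 of 7 by the adjusted p in either region, where 0.329% of 42559 genes passed as lower in the forebrain and 0.181% in the midbrain. At an unadjusted p below 0.05, 3 copies passed in each region, and DESeq2 passed 1 in the forebrain and 2 in the midbrain. For these counts the share of all genes is not reported here. dlx2.L differed by -1.57 ± 0.38 (SE) in the forebrain and by -1.65 ± 0.38 in the midbrain on the log2 scale (adjusted p = 0.0669 and 0.0658). The other copies differed by -1.66 to -0.85 in the forebrain and by -1.51 to -0.29 in the midbrain.

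These differences depended on how the libraries were scaled. Over all genes tested, the median log2 difference was 0.52 in the forebrain and 0.72 in the midbrain after TMM scaling. It was 0.98 and 1.03 when libraries were scaled by their totals alone. The copies lay below this median under both, but lower levels at stage 49 were not particular to them. After TMM scaling, the pallial list summed to 1610 to 3212 CPM in the stage 46 forebrain and 903 to 946 CPM at stage 49. In the midbrain it summed to 1387 to 1428 and 602 to 1051 CPM. The diencephalic list overlapped between the stages in the midbrain, at 1211 to 1317 and 919 to 1458 CPM. Scaled by totals, dlx2.L differed by -1.04 in the forebrain (adjusted p = 0.106) and by -1.48 in the midbrain (adjusted p = 0.02). Midbrain replicate 1 of stage 49 is not among the libraries with broad detection, but had 38815 genes detected, against 32832 to 34499 in the stage 46 midbrain. Genes with at most 2 counts over 12 midbrain samples took 0.0635% of its counts, against 0.00186 to 0.00437% there. The stage 46 midbrain samples are among the 12 that define these genes, so their low share follows from this choice. The stage 66 midbrain sample, outside the 12, was at 0.0395%. The dlx2.L level of stage 49 midbrain replicate 1, 47.8 CPM, was below the 111 to 151 CPM of the stage 46 midbrain. Unscaled it was 44.0 CPM against 93.4 to 122 CPM. The part of the breadth of detection in this difference was not tested. Unscaled, the samples of both stages overlapped for dlx6.L in the forebrain (33.6 and 48.4 CPM at stage 49 against 48.2 to 61.6 CPM) and for dlx6.L, dlx6.S and gsx2.L in the midbrain. In a fit of the 15 midbrain samples, chosen after the data were seen, dlx2.L, dlx2.S, dlx5.L and dlx5.S passed as lower at stage 49 (-1.76, -1.59, -1.39 and -1.54, adjusted p = 4.72e-06, 1.41e-05, 0.00371 and 0.00107), and dlx6.L, dlx6.S and gsx2.L did not (-0.38, -0.64 and -0.40). Without the 3 stage 46 libraries with broad detection, all 7 copies passed in the forebrain, by -1.80 to -1.12 (adjusted p from 0.000345 to 0.0433). In the forebrain this leaves libraries with broad detection at stage 49 only, so stage and breadth of detection cannot be told apart there. In the same fit dlx2.L, dlx2.S, dlx5.L and dlx5.S passed in the midbrain, by -1.83 to -1.46 (adjusted p from 0.000287 to 0.00351). The share of all genes that passed in this fit was not counted.

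In the spinal cord, dlx2.L passed as higher at stage 49 by 1.75 ± 0.53 (SE) (adjusted p = 0.0292, 0.571% of all genes), from 0.78 to 1.48 CPM at stage 46 and 2.36 to 6.06 CPM at stage 49. Both stage 49 spinal cord libraries were among those with broad detection, in which dlx3 and dlx4 were also raised, and the difference no longer passed without spinal cord replicate 1 of stage 46 or of stage 49 (adjusted p = 0.119 and 0.615). In the hindbrain edgeR passed 0 of the 7 copies (2 at an unadjusted p below 0.05, and DESeq2 passed 1). No share of all genes is given for these counts. Without hindbrain replicate 3 of stage 46, which leaves libraries with broad detection at stage 49 only, dlx2.S, both dlx5 copies and both dlx6 copies were called higher at stage 49 (adjusted p from 0.00199 to 0.0145). In the hindbrain and spinal cord, stage and breadth of detection then cannot be told apart.

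The change of the difference between forebrain and midbrain from stage 46 to 49 was tested directly. It was between -0.68 and 0.12 on the log2 scale for the 7 copies, with adjusted p from 0.835 to 0.999, 0 copies at an unadjusted p below 0.05 in edgeR, and 0 passed by DESeq2. Over all genes tested the median was -0.57, and -0.02 without the 3 stage 46 libraries with broad detection.

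In the midbrain over metamorphosis, the copies differed in which comparisons passed, and differences between copies were not tested. dlx2.L and dlx2.S were lower at stages 55 and 61 than at stages 44 and 46. The dlx6 copies did not pass the main test in any comparison of these stages, narrowly so from stage 44 to 61. gsx2.L was at stage 55 close to its early level and almost undetected at stage 61. dlx2.L was at 158, 139 and 121 CPM at stage 44, at 64.1, 79.3 and 94.3 CPM at stage 55, and at 69.8, 63.9 and 46.4 CPM at stage 61. dlx2.S was at 56.9, 50.7 and 58.5 CPM at stage 44, at 28.7, 29.2 and 36.1 CPM at stage 55, and at 15.6, 15.1 and 19.3 CPM at stage 61. Stages 55 and 61 overlapped for dlx2.L and did not for dlx2.S. The levels did not fall steadily with stage. At stage 49, dlx2.L was at 47.8 and 23.7 CPM and dlx2.S at 16.5 and 13.1 CPM. Stage 55 samples were above those of stage 49 without overlap for 6 of the 7 copies, all but gsx2.L. How many of all genes were separated in this way was not counted. The pallial list had the same order, at 1387 to 1428 CPM at stage 46, 602 to 1051 CPM at stage 49 and 1087 to 1409 CPM at stage 55. The diencephalic list overlapped between stages 49 and 55. The part of the stage 49 libraries in this order was not tested. Replicate 2 of stage 49 is a library with broad detection, and no test between these stages is reported here. The single stage 66 sample, at 72.3 CPM of dlx2.L and 23.2 CPM of dlx2.S, was above every stage 61 sample for both.

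From stage 44 to 61, dlx2.L fell by 1.18 on the log2 scale (SE 0.18, adjusted p = 2.83e-05) and dlx2.S fell by 1.70 (SE 0.18, adjusted p = 2.12e-07). Both had passed by stage 55, at -0.79 ± 0.18 and -0.80 ± 0.17 (adjusted p = 0.00386 and 0.00254), although neither did in a fit of all 30 samples (0.168 and 0.489). Against stage 46 the stage 55 difference was lost for dlx2.L without replicate 1 of either stage, and for dlx2.S without stage 46 replicate 2 or 3 or stage 55 replicate 1 or 2 (adjusted p from 0.0526 to 0.0752). From stage 55 to 61, dlx2.S fell by a further 0.90 (SE 0.18, adjusted p = 0.00101), while dlx2.L differed by -0.38 ± 0.18 (adjusted p = 0.146). Whether the copies differ from each other in this interval was not tested. Neither copy reached the threshold of 2 in these comparisons. The background is high here. As lower at stage 61 by the adjusted p, 3 of the 7 copies passed against stage 44, 4 against stage 46 and 2 against stage 55, where 18.9%, 19.9% and 10.7% of the 26681 genes tested did. As lower at stage 55, 2 of the 7 passed against stage 44 and 2 against stage 46, where 7.97% and 8.16% of all genes did.

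gsx2.L had 18, 40 and 36 counts at stage 44 (3.01, 4.29 and 4.2 CPM), 26, 43 and 33 counts at stage 46, 36, 33 and 17 counts at stage 55, and 3, 0 and 4 counts at stage 61 (0.386, 0 and 0.550 CPM). No sample of stage 61 overlapped with an earlier stage. gsx2.L was the 1 copy called in these comparisons, lower at stage 61 by -3.47 ± 0.68 (SE) against stage 44, -3.55 ± 0.68 against stage 46 and -3.28 ± 0.68 against stage 55 (adjusted p = 0.000407, 0.000303 and 0.0016 by edgeR). It was called in all 12 fits that left out 1 midbrain sample. Of all genes, 4.76%, 4.9% and 2.98% were called lower in the same comparisons. Between stages 44, 46 and 55 its log2 differences were -0.27 to 0.08, each with an SE of 0.53. In the single stage 66 sample gsx2.L had no count, which at its depth allows up to 0.539 CPM.

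The dlx5 and dlx6 copies varied less with stage. dlx5.L was at 18.2 to 22.9 CPM at stage 44, 9.89 to 19.1 CPM at stage 55 and 10.2 to 18.5 CPM at stage 61. dlx5.S passed as lower at stage 61 than at stage 46 (-0.77 ± 0.27, adjusted p = 0.0297), a result lost without stage 46 replicate 1 or 2 or stage 61 replicate 1 (adjusted p = 0.104, 0.0504 and 0.143). Against stage 44 it differed by -0.39 ± 0.27 (adjusted p = 0.277). dlx6.L was at 21.1 to 29.0 CPM at stage 44 and 13.6 to 18.2 CPM at stage 61 without overlap, with a log2 difference of -0.54 ± 0.21 (adjusted p = 0.0518), and dlx6.S differed by -0.60 ± 0.24 (adjusted p = 0.0558). Of the 12 fits without 1 library, dlx6.L passed in 4 and dlx6.S in 3. At stage 66 the single sample had 72.3 CPM of dlx2.L, 23.2 CPM of dlx2.S, 16.9 CPM of dlx5.L, 30.7 CPM of dlx5.S, 18.5 CPM of dlx6.L and 14.2 CPM of dlx6.S. dlx5.S was there above every other midbrain sample. The diencephalic list, summed over its genes, was at 1222 to 1228 CPM at stage 44, 769 to 2100 CPM at stage 55 and 659 to 833 CPM at stage 61, and its part in the midbrain changes was not tested.

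**Figure D3:**
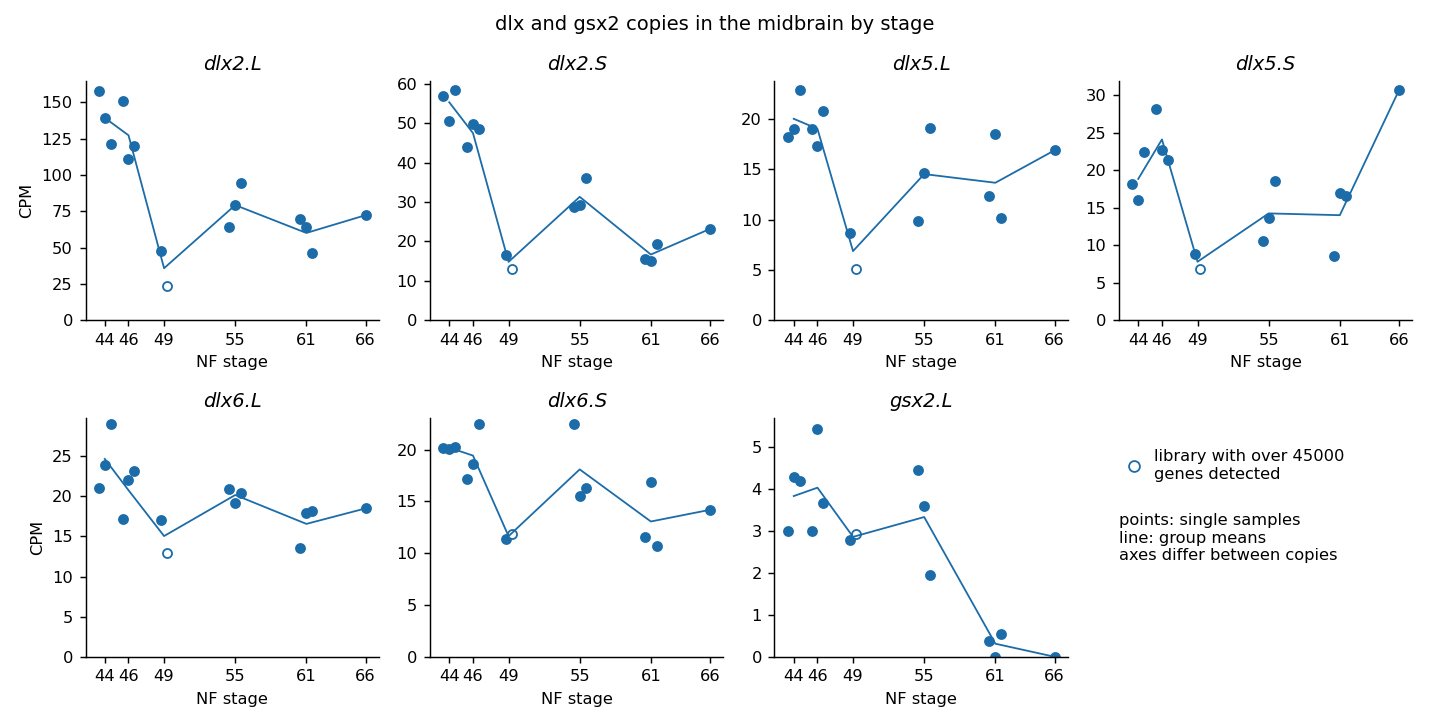
Level of each copy in the midbrain, in CPM, against NF stage. Points are samples (3 at stages 44, 46, 55 and 61, 2 at stage 49, 1 at stage 66), the line joins the group means, the open point is a library with over 45000 genes detected, and the vertical axes differ between copies. dlx2.L and dlx2.S are highest at stages 44 and 46, and gsx2.L is between 0 and 0.550 CPM at stages 61 and 66.

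The balance between the copies of a gene was measured as the share of the .L copy in the counts of both. For dlx2 it was 67.3 ± 4.0% (SD, n = 3) in the stage 46 forebrain and 72.5 ± 4.43% (SD, n = 3) in the midbrain. Over the 15 midbrain samples it was between 64.3% and 81.8%, from 67.5 to 73.5% in the 3 samples of stage 44 and from 70.6 to 81.8% in those of stage 61, so the stages overlapped. For dlx5 the share was 49.3 ± 8.07% in the stage 46 forebrain and 44.3 ± 4.66% in the midbrain (SD, n = 3 each), and for dlx6 it was 54.6 ± 4.48% and 51.6 ± 2.27%. Some single samples differed by more than counting error allows. The exact binomial 95% interval (Clopper-Pearson) of dlx5 was 48.1 to 56.2% in forebrain replicate 1 and 35 to 45.5% in replicate 3 of stage 46. Replicate 3 is a library with broad detection, and replicate 2, which is not, was at 52.6 to 58.4%. For dlx2 the interval was 75.4 to 79.5% in stage 46 midbrain replicate 1 and 66.3 to 71.5% in replicate 2, both without broad detection. These intervals cover counting error only, and the shares depend on how reads that match both copies were counted, which is not given in the sources used here.

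**Figure D4:**
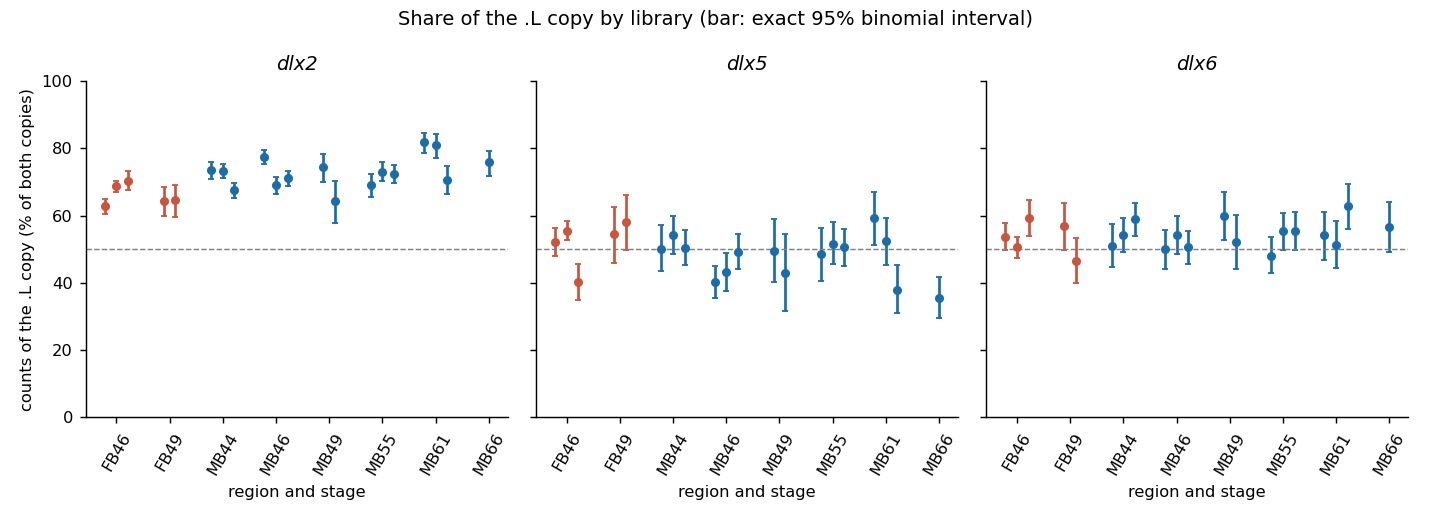
Counts of the .L copy as a percentage of both copies of dlx2, dlx5 and dlx6 in each forebrain (FB, red) and midbrain (MB, blue) library, grouped by stage. Bars are exact binomial 95% intervals and the dashed line is an equal share. dlx2 lies above it in every library shown, between 62.8 and 81.8%, while dlx5 and dlx6 lie around it.

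Over the 20 samples of stages 46 and 49, the dlx copies followed each other closely, with Pearson correlations of log2(CPM + 1) from 0.883 to 0.983 between copies, and of 0.659 to 0.788 between gsx2.L and a dlx copy. These values are descriptions over samples that share regions, depth and the breadth of detection. Among 20919 other named genes, those most like the mean of the 6 dlx copies were dmrta2.L (r = 0.985), nkx2-1.L (0.971), emx1.2.L (0.961), rlbp1.S (0.958), dmrta2.S (0.958), sp9.L (0.951), fzd5.L (0.937), slc1a6.L (0.936), nr2e1.L (0.935) and camk1g.L (0.934). Several of these encode forebrain transcription factors, and at stage 46 they varied in their midbrain level. nkx2-1.L, known from the ventral telencephalon and hypothalamus, was at 84.3 CPM in the forebrain and 79.6 CPM in the midbrain, and emx1.2.L was at 70 and 13.8 CPM. Among those most like gsx2.L were plppr4.S (0.935), rasgef1a.L (0.932), zbtb18.S (0.932), p2ry1.S (0.924), p2ry1.L (0.917), fam212b.L (0.915), slc1a6.S (0.914) and dgka.L (0.897), each lower in the midbrain than in the forebrain at stage 46. They were picked by likeness to gsx2.L in the same samples, so this order follows in part from the choice.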

How the data were processed

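Total RNA was extracted from dissected brain regions, amplified from 2 ng and sequenced as single-end reads. Reads were mapped by the authors with STAR 2.5.2a (X. laevis genome v9.2) and assigned to genes with HTSeq 0.11.1. The deposited table gives raw counts, without normalization, for 49109 genes in 30 samples. Handling of multi-mapping reads and strand is not given in the sources used here. The deposited normalized tables were not used.

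Genes were filtered with edgeR 4.0.16 (R 4.3.3; minimum count 10, minimum total 15), scaled by TMM and fitted by stage 46, stage 49, the 12 midbrain samples of stages 44, 46, 55 and 61, or the 20 samples of stages 46 and 49. The quasi-likelihood test (robust) gave p values, adjusted by the Benjamini-Hochberg method. The SE was taken as the size of the log2 difference over the root of F. CPM use TMM over all 30 samples. The steps were tested on simulated data. Alternatives were DESeq2 1.42.0, other scalings, no filter, a replicate block, other sample sets and each sample left out. The members and lists were chosen with earlier results of these data known. Every copy is described; from each list up to 4 genes are named, those with the smallest p between forebrain and midbrain at stage 46. Some genes that these rules name are not reported here. Samples of stage 46 and of the midbrain series are biological replicates according to the methods. For stages 49 and 66 this is not given in the sources used here. Neighbouring genes come from the RefSeq annotation, whose build differs from that of the files.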

Additional observations from a re-analysis of the deposited data

How the results depend on the processing

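Of the comparisons at stage 46, 1 copy of 10 (gsx2.L) was called higher in the forebrain than in all 3 other regions in every setting other than a log2 threshold of 1, which gave 2, and against the midbrain alone the counts were also 1 and 2. The 7 calls against the hindbrain and against the spinal cord stayed within 1.5 times that number. At stage 49 the count against all 3 regions was 0, and 0 to 2 with 1 sample left out. Against the midbrain it was 0, and 0 to 4 with 1 sample left out. Against the hindbrain it was 3, 5 by DESeq2 and 0 to 6 with 1 sample left out, and against the spinal cord 3 and 0 to 5. These stage 49 counts take all 10 copies, dlx3 and dlx4 included. With 1 sample left out, dlx5.L and gsx2.L were the only subpallial copies called higher in the stage 49 forebrain than midbrain. The count of 4 against the midbrain therefore included dlx3 or dlx4 copies, whose level followed the breadth of detection. The count in the midbrain stages was 1, and 3 at a threshold of 1. Between stages 46 and 49 it was 0. It was 2 after relative log expression scaling, 3 by DESeq2, 3 after scaling by total counts only (added after seeing the data) and 3 in the fit of all 30 samples. It was 1 at a threshold of 1, 8 without the 3 stage 46 libraries with over 45000 genes detected, and 0 to 5 with 1 sample left out. The cause was not tested. This count takes each of the 10 copies in any region and in either direction, and no share of all genes is reported here for it. Without the 3 libraries, none of the 7 subpallial copies was called in the forebrain or midbrain.

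The labels tie no samples by replicate number, and not every pair of the same number deviated together. The correlations were -0.53 to 0.36 at stage 49 and -0.06 to 0.04 in the midbrain, and -0.02 to 0.85 at stage 46, where 9 of 18 pairs were above 0.1 and replicate 3 of 3 regions shared the broad detection of genes. With the replicate block the count between stages 46 and 49 was 6, and dlx6.L between stages 46 and 49 in the midbrain was at 0.05 in place of -0.29.

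Of 2009 log2 differences recomputed for the 7 copies, leaving out the comparisons of hindbrain with spinal cord, of stages 44 and 46, of midbrain with other regions at stage 49, of stages 46 and 49 outside forebrain and midbrain, and of the forebrain to midbrain difference between stages, 1788 kept their direction and side of the threshold, 106 came to pass, 99 no longer passed and 16 changed sign, none of these 16 past the threshold. Among the comparisons left out of this count, dlx6.S between hindbrain and spinal cord at stage 46 went from 0.41 to -5.73 without hindbrain replicate 3 (adjusted p = 0.0294). gsx2.L between midbrain and hindbrain at stage 46 was at -0.03 after scaling by total counts only and -0.03 without the 3 libraries, and at -0.18 to 0.27 with 1 sample left out. With 1 sample left out, gsx2.L was at -0.46 to 0.07 between stages 44 and 55 and at -0.54 to 0.00 between stages 46 and 55. dlx6.L was at -0.17 to 0.04 and dlx6.S at -0.29 to 0.02 between stages 46 and 55, and dlx5.L was at -0.37 to 0.17 and dlx5.S at -0.19 to 0.25 between stages 55 and 61. Depth limits the low values: in the hindbrain and spinal cord the dlx copies rest on at most 36 counts per library.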
